A study of Mus musculus with 19 samples.

Results

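Mouse liver tumors that had recurred (MYC_Recur, 3 libraries) were compared with tumors of the MYC_OFF group (3 libraries) across every gene symbol of the deposited table that was not a bare number and reached a value of at least 1 in at least 3 of these 6 libraries. That rule kept 11901 of 19511 symbols. The series profiles RNA from MYC and MYC/Twist1 liver tumors of the mouse in 5 groups and 19 libraries. Its remaining groups, MYC_HCC (5 libraries), MYC_Twist1_HCC (5) and MYC_Twist1_OFF (3), enter here only through the shared estimate of spread and, for MYC_HCC, as a range of values. All 6 libraries compared were newly sequenced, whereas the HCC libraries were taken over from an earlier deposit. Every sample is labelled as hepatocellular carcinoma of liver, frozen before RNA extraction. For both groups the labels give no strain, sex, age, transgene, promoter, agent or time beyond the group name. They do not say whether the replicates came from separate animals. The p-values therefore measure only a spread between tumor samples, pooled over the libraries of all 5 groups.

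MYC is a basic helix-loop-helix leucine zipper transcription factor that pairs with MAX and binds the E-box CACGTG, while the MXD proteins, MNT and MGA compete with it for MAX. In liver and other tissues it is known for driving ribosome production, translation, nucleotide synthesis, metabolism and the cell cycle. In mouse liver tumors made by a conditional MYC transgene, switching the transgene off is known to bring about regression, and tumors can later return; the comparison of recurrent with MYC-off tumors asks which transcripts differ between these states.

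Values are the authors' normalized levels, and 3 values in a row are replicates 1, 2 and 3. Differences are MYC_Recur minus MYC_OFF in log2(value + 1), which understates changes of low genes, and a gene rose or fell only where limma gave an adjusted p under 0.05 in a fit of all 5 groups. As deposited, 4930 genes rose (41.4% of those tested), 1329 fell (11.2%), together 6259 (52.6%), and the median difference over all 11901 was 0.55. The median shifted with scaling: it was 0.48 after equalizing totals, 0.00 with factors from trimmed means of M values (TMM), 0.01 by the upper quartile and -0.06 by median of ratios. After TMM scaling (called rescaled below), 5293 genes were called (44.5%), 2753 rose (23.1%) and 2540 fell (21.3%), so 52.0% of calls were upward against 78.8% as deposited. Each gene list is therefore given on both scales and read against these figures. Fitted on the 6 libraries alone, 5045 genes were called (42.4%), 4130 upward (34.7%) and 915 downward (7.69%). Calls common to the deposited and the 4 other scalings numbered 2541 upward and 1321 downward.

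Library totals ranged from 547360 to 690310. The 10 highest genes held 21.0% to 28.8% of a MYC_OFF total and 7.75% to 12.4% of a MYC_Recur total. Across genes, log2 values correlated at 0.88 to 0.92 within MYC_OFF, 0.915 to 0.934 within MYC_Recur and 0.653 to 0.752 between the groups; genes are not independent replicates. The first principal component (69% of the variance) separated the groups, and MYC_OFF 1 stood apart on the second (11.7%). The numbers of reads behind these values are unknown.

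**Figure D1:**
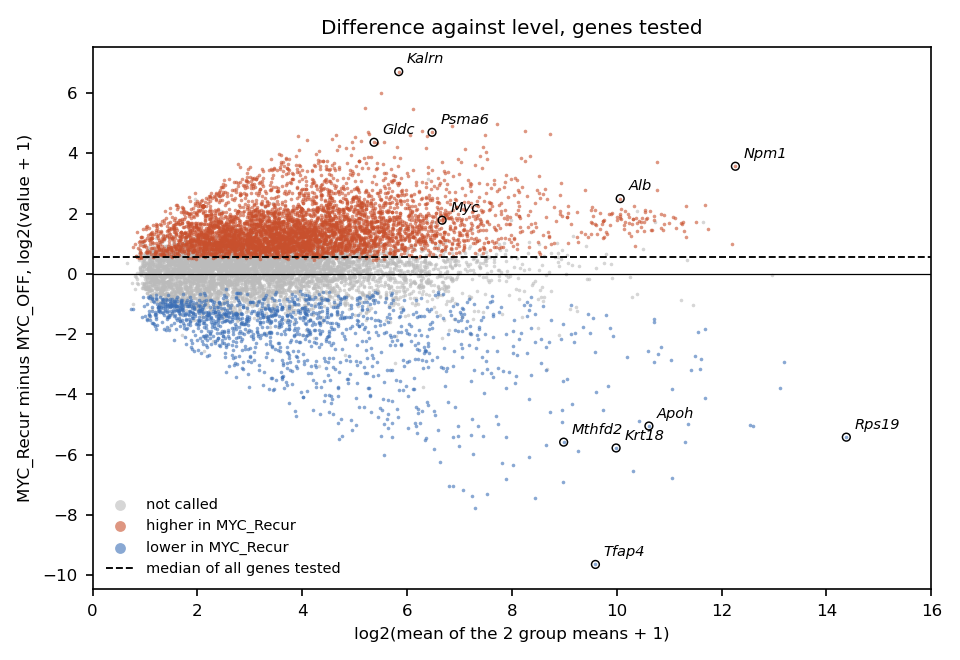
Each point is 1 of the 11901 genes; the x axis is log2 of the mean of the 2 group means plus 1 and the y axis is the log2 difference of MYC_Recur minus MYC_OFF. Red genes rose, blue genes fell and grey genes were not called; the dashed line marks the median of 0.55, and the falls reach further from 0 than the rises.

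Differences were uneven across levels. Of 101 genes whose mean of both groups was at least 1000, 62 rose and 28 fell, and the fallen ones had a median difference of -3.18. Of 5937 genes with a mean from 1 to under 10, 1985 rose and 597 fell, at a median among the fallen of -1.39. Rises of more than 2 on the log2 scale were called for 1061 genes and falls of more than 2 for 474. Beyond 4, the order turned, with 36 rises and 111 falls. The groups' library values did not overlap for 6666 genes (56.0%), of which 5338 were higher in MYC_Recur (44.9% of those tested) and 1328 lower (11.2%). Of the 41 gene lists described here with at least 10 tested members, 14 had a deposited share of rises more than 10 percentage points above the 41.4% of all genes and 13 more than 10 below it. The other 14 were near that background: the MYC network, nucleotide synthesis, the G1/S transition, chaperones, autophagy and lysosome, complement and coagulation, bile acids, fatty acid oxidation, lipid synthesis, urea cycle and amino acids, oncofetal genes, epithelial-mesenchymal transition, hypoxia and interferon response. As deposited, 73.1% of translation factor, 60% of ribosome biogenesis, 62.9% of DNA replication and 70% of mitosis genes rose. So did 72.2% of splicing factor, 61.3% of proteasome and 58.8% of hepatocyte plasma protein genes. Rescaled, these shares were 57.7%, 40%, 42.9%, 40%, 33.3%, 45.2% and 44.1%, beside 23.1%. Gluconeogenesis and glycogen (25%), liver transcription factors (28.6%) and hepatocyte markers (32%) then lay within 10 percentage points of that.

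Myc itself rose. The gene (chr15:61985391-61990374, plus strand, GRCm38) was at 59.8, 33.9 and 43.4 in MYC_OFF, a mean of 45.7 ± 13.1 (SD, n = 3), and at 159, 156 and 152 in MYC_Recur, a mean of 156 ± 3.14 (SD, n = 3), a difference of 1.78 (SE 0.22, adjusted p = 5.04e-06). The 3 recurrent libraries lay close together, above all MYC_OFF libraries and inside the MYC_HCC range of 129 to 180.5. Rescaled, the Myc difference was 1.13. Whether reads of a MYC transgene were counted under this symbol is not given in the sources used here. Twist1, the transcription factor that defines the MYC/Twist1 groups and is known for epithelial-mesenchymal transition, was at 0.06, 0 and 0 in MYC_OFF and 0.03, 0.03 and 0.02 in MYC_Recur, below the minimum for testing.

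Partners of MYC moved in both directions. The test called 5 of 12 genes of MYC and its partner network higher and 4 lower, with a median difference of 0.47. Rescaled values gave 4 higher, 4 lower and a median of 0.01. Under median-of-ratios scaling the sign of the median changed, to -0.04. Lower calls came to 0 without MYC_OFF 1 or MYC_Recur 1 and 2 without MYC_OFF 2 or MYC_Recur 3. With these 6 libraries fitted alone, 0 fell. Max, the dimer partner that MYC needs to bind DNA, was at 4.43, 6.44 and 5.41 in MYC_OFF and 49.5, 33.5 and 86.9 in MYC_Recur, a difference of 3.07 (SE 0.34, adjusted p = 2.25e-06). Mxd3, a MAX partner expressed in dividing cells, went from 12.9, 6.39 and 13.1 to 83.6, 101 and 129, differing by 3.20 (SE 0.37, adjusted p = 3.41e-06). Mlxipl, the glucose-responsive factor ChREBP that pairs with MLX, rose from 9.27, 6.38 and 7.64 to 28.02, 28.5 and 38.4, by 1.90 (SE 0.29, adjusted p = 3.25e-05). In these 3 genes every recurrent library exceeded every MYC_OFF library. Mxd4, another MAX-binding repressor, rose by 0.86 (adjusted p = 0.00816). Mnt, a widely expressed MAX-binding repressor, was at 615, 67.7 and 79.8 in MYC_OFF and 16.8, 18.8 and 69.3 in MYC_Recur, a difference of -2.37 (SE 0.79, adjusted p = 0.0174), and the groups overlapped. Mga, a MAX partner of the T-box family, was at 212, 44.4 and 16.8 against 5.9, 11.7 and 26.04, a difference of -2.06 (adjusted p = 0.0155), also with overlap. MYC_OFF 1 was the highest library for both. Mxd1 and Mxi1, 2 further repressors of the network, differed by -1.47 (adjusted p = 0.0474) and -0.59 (adjusted p = 0.0436). The Mnt call was lost without MYC_OFF 1, MYC_Recur 1 or MYC_Recur 2 (adjusted p = 0.0612 to 0.128), and that of Mga without MYC_OFF 1 or MYC_Recur 1 (adjusted p = 0.0855 to 0.118). The Mxd1 call was lost without MYC_OFF 1, MYC_OFF 2, MYC_Recur 1 or MYC_Recur 3 (adjusted p = 0.0626 to 0.304), and that of Mxi1 without MYC_OFF 1, MYC_OFF 2, MYC_Recur 1 or MYC_Recur 3 (adjusted p = 0.0572 to 0.198). With the 6 libraries fitted alone, Mnt, Mga, Mxd1 and Mxi1 did not pass (adjusted p = 0.0605 to 0.157). The differences of Mnt, Mga, Mxd1 and Mxi1 were -1.35, -1.10, -0.70 and -0.38 without MYC_OFF 1. At least 1 of the other scalings ended the call of Mxd4.

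**Figure D2:**
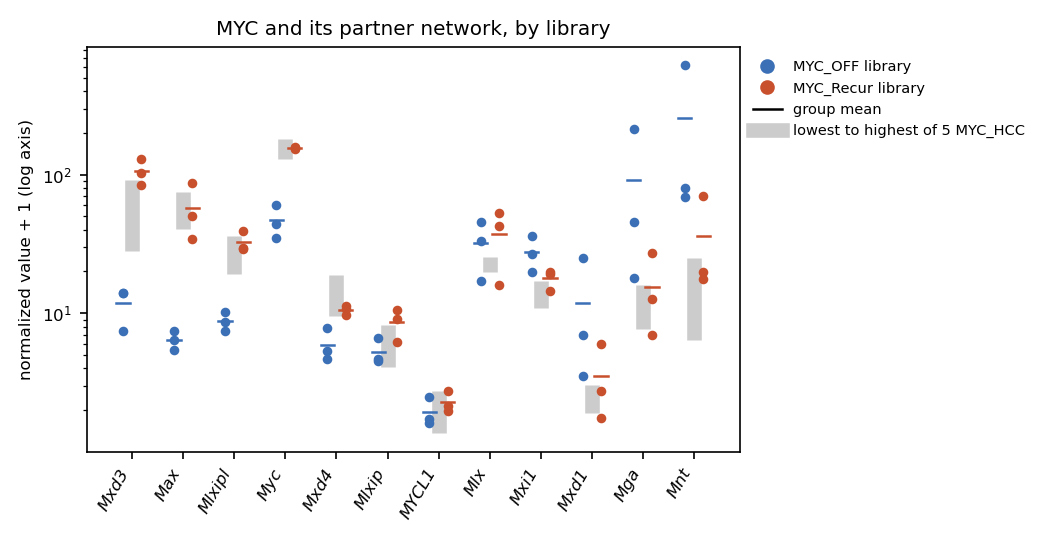
Normalized value plus 1 on a log axis for the 12 tested members of the MYC network; points are libraries, short lines are group means, and grey bars run from the lowest to the highest of 5 MYC_HCC libraries. Max, Mxd3, Mlxipl and Myc separate the groups, while Mnt and Mga have MYC_OFF 1 far above the other libraries.

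Promoter windows with the E-box are shown for 3 network genes and for 2 growth genes, Cdk4 and Ldha, that were chosen after their values were seen. They come from RefSeq (GRCm38.p6), run 5′ to 3′ on the gene's strand, and carry CACGTG in capitals. The windows are chr5:34187884-34187960 on the minus strand (Mxd4), chr11:74830761-74830846 on the plus strand (Mnt), chr5:135089752-135089837 on the plus strand (Mlxipl), chr10:127063323-127063408 on the plus strand (Cdk4) and chr7:46845619-46845704 on the plus strand (Ldha).
Mxd4: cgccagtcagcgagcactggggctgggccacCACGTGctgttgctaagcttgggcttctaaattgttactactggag
Mnt: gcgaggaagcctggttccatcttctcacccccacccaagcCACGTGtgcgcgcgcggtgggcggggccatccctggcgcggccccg
Mlxipl: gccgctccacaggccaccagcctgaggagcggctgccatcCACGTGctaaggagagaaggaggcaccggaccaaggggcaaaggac
Cdk4: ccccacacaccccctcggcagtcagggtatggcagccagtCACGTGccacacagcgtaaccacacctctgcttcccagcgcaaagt
Ldha: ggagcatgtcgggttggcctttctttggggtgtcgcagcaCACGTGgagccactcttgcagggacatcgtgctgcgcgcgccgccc
Cdk4 held 4 such motifs in its 300 bases and Ldha 2, and the other 3 genes held 1 each. Cdk4, a G1 kinase, was at 196, 76.5 and 70.4 in MYC_OFF and 201, 309 and 561 in MYC_Recur (1.67, adjusted p = 0.00235), and Ldha, which makes lactate, was at 404, 152 and 128 and 772, 724 and 784 (1.93, adjusted p = 0.000174). Both were higher in every recurrent library. With another scaling of the libraries, the call of Cdk4 did not always hold.

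Windows from 250 bases before to 50 after the start were found by symbol for 8772 of the 11901 genes and searched for CACGTG, which reads the same on both strands; its overlap with other motifs was not considered. The motif lay in 12% of tested genes (1049), in 12.9% of genes that rose (485 of 3772), 10.7% of those that fell (101 of 946) and 11.4% of those not called (463 of 4054). Over all 27025 windows the share was 8.09%. By list, 5 of 10 MYC network windows held it, as did 11 of 29 for autophagy and lysosome (37.9%), 6 of 20 for translation factors (30.0%) and 7 of 34 for ribosome biogenesis (20.6%). For cytosolic ribosomal proteins it was 6 of 58 (10.3%), for hepatocyte plasma proteins 1 of 26 (3.85%), and for complement (24) and drug metabolism (30) none. These shares describe the letters in the windows, and no test was made of them.

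Among genes that met the naming rule, the largest rise was that of Kalrn, a guanine nucleotide exchange factor for small GTPases known from neurons (chr16:33969073-34573532, minus strand, GRCm38). It was at 0.06, 0 and 0.06 in MYC_OFF and 128, 71.6 and 138 in MYC_Recur, a difference of 6.72 (SE 0.56, adjusted p = 4.04e-07), and the MYC_HCC libraries ranged from 0.11 to 3.48. Ubac2, an endoplasmic reticulum protein of the degradation machinery, went from 1.39, 0 and 0 to 56.2, 117 and 90.2 (5.99, adjusted p = 9.26e-06). Veph1, a membrane-associated pleckstrin homology protein, went from 0.37, 0 and 0.51 to 26.4, 136 and 50.5 (5.51, adjusted p = 1.76e-06). These 3 were near 0 in MYC_OFF and high in every recurrent library. Pdhb, a subunit of pyruvate dehydrogenase, was at 17.1, 2.74 and 4.86 against 262, 214 and 184 (4.90, SE 0.38, adjusted p = 2.75e-07). Tma7, a small translation machinery protein, was at 30.9, 10.2 and 23.7 against 653, 349 and 747 (4.74, adjusted p = 3.09e-06). Psma6, an alpha subunit of the 20S proteasome, was at 8.96, 3.6 and 3.6 against 129, 98.7 and 284 (4.70, adjusted p = 4.23e-07). The mitotic checkpoint gene Bub3 was at 5.87, 1.98 and 1.21 against 48.98, 354 and 48.02 (4.74, adjusted p = 1.04e-05), with MYC_Recur 2 the highest. Of the others, Adh5, a formaldehyde-oxidizing dehydrogenase, Ube2h of ubiquitin conjugation, Elp5 of the Elongator complex and Slc25a39, a mitochondrial carrier, had differences from 4.62 to 4.98.

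The falls were larger. Tfap4, which encodes the E-box-binding factor AP-4, a known MYC target (chr16:4544661-4559854, minus strand, GRCm38), was at 739, 3603 and 286 in MYC_OFF and 0.16, 0.09 and 0.17 in MYC_Recur, a difference of -9.65 (SE 0.85, adjusted p = 4.61e-07). Its 5 MYC_HCC libraries ranged from 3.31 to 19.96. Fam207a, a gene linked to ribosome assembly, was at 591, 692 and 796 against 2.12, 5.33 and 2.06 (-7.46, SE 0.43, adjusted p = 1.26e-08), with little spread in MYC_OFF. Ulk1, the kinase that starts autophagy, was at 253, 614 and 32.99 against 0, 0.13 and 0 (-7.39, adjusted p = 1.89e-05). Pias1, an inhibitor of STAT signalling, was at 251, 567 and 273 against 0.97, 1.27 and 1.15 (-7.32, adjusted p = 2.75e-07). Zdhhc16, a protein palmitoyltransferase in the 10 highest genes of MYC_OFF 3, was at 2280.1, 3597 and 6741 against 24.4, 42.3 and 36.8 (-6.78, adjusted p = 4.04e-07). Racgap1, needed for cytokinesis, was at 335, 799 and 188 against 4.44, 10.8 and 0.73 (-6.27, adjusted p = 4.91e-05). Ccdc130, a relative of a splicing factor, was at 500.4, 379 and 53.8 in MYC_OFF and is listed at 0 in all 3 recurrent libraries (adjusted p = 7.71e-05). The remaining 5, Zdhhc18 (a palmitoyltransferase), Rhbdf2 (an inactive rhomboid), Slc41a1 (a magnesium transporter), CCDC104 (a coiled-coil protein) and Cox6b2 (a cytochrome oxidase subunit), differed by -6.81 to -7.18. The naming rule admits only genes without overlap between the groups. In most of the 12, MYC_OFF libraries differed several-fold among themselves.

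For 11 of these 12 genes all 3 MYC_OFF libraries were above the highest of the 5 MYC_HCC libraries. The same was so for 103 of the 111 genes that fell by more than 4 (92.8%), for 951 of all 1329 that fell (71.6%) and for 1864 of the 11901 tested (15.7%). Among the 4930 genes that rose, all MYC_OFF libraries were below the MYC_HCC range for 3604 (73.1%), against 4310 of all tested (36.2%). The calls used these same MYC_OFF values, so the shares among called genes are a description and not a test. Among the 1329 that fell, all 3 recurrent libraries were below the MYC_HCC range for 193 (14.5%) and above it for 162 (12.2%). Over all tested genes these were 795 (6.68%) and 1637 (13.8%). All 3 recurrent libraries were inside the MYC_HCC range for 2837 genes tested (23.8%), and all 3 MYC_OFF libraries for 1344 (11.3%). The MYC_HCC libraries were sequenced separately, so group and sequencing run cannot be told apart in these ranges.

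**Figure D3:**
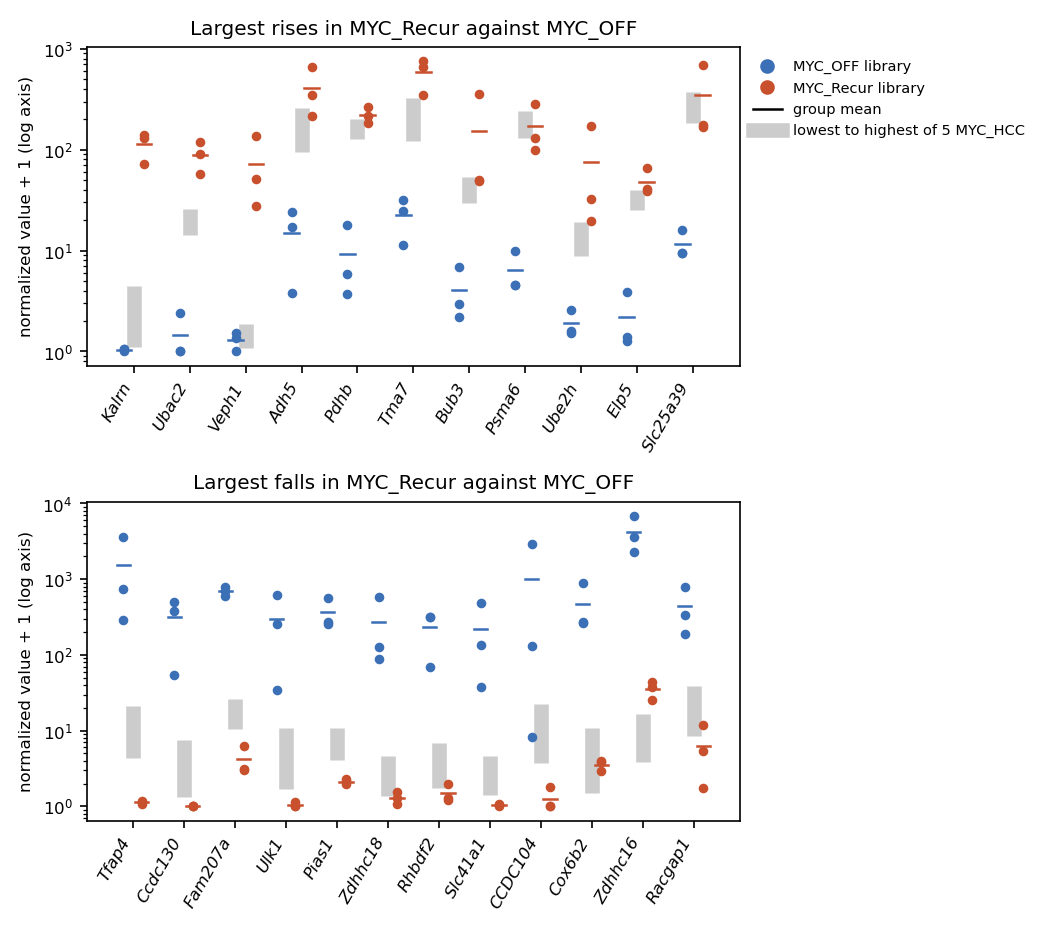
Normalized value plus 1 on a log axis for 11 of the 12 largest rises (top) and the 12 largest falls (bottom) under the naming rule; points are libraries, short lines are group means and grey bars span the 5 MYC_HCC libraries. In 11 of the 12 falls the MYC_OFF points all lie above the grey bar.

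Ribosomal protein genes were mostly higher in recurrent tumors, with a small set far lower. Among 79 cytosolic ribosomal protein genes, 64 passed the test upward and 8 downward (median difference 1.70). After rescaling, the list had 49 upward, 11 downward and a median of 1.04. As deposited, 81.0% of the list rose and 10.1% fell, beside 41.4% and 11.2% of all genes tested. After rescaling, 62.0% rose and 13.9% fell, beside 23.1% and 21.3%. Rpl23a was at 517, 151 and 170.3 in MYC_OFF and 2877, 2546 and 4206 in MYC_Recur, a difference of 3.72 (SE 0.38, adjusted p = 1.38e-06). Rpl31, Rpl27 and Rpl36a, which like Rpl23a encode proteins of the large subunit, rose by 2.99 (adjusted p = 8e-06), 2.71 (adjusted p = 5.37e-06) and 2.04 (adjusted p = 1.23e-05). In all 4 the recurrent libraries were the 3 highest. Rps19, a small-subunit protein mutated in Diamond-Blackfan anemia (chr7:24884371-24889806, plus strand, GRCm38), was the top gene of every MYC_OFF library, at 26471, 32924 and 65239, and was at 843, 1911 and 446 in MYC_Recur, a difference of -5.42 (SE 0.62, adjusted p = 3.09e-06). Rpl28 was at 13212, 9864 and 11563 against 689.6, 383 and 169 (-5.01, adjusted p = 7.16e-07). Rps9 was at 11646, 15907 and 21825 against 1072, 1373 and 1006 (-3.80, adjusted p = 1.05e-06). None of these 3 overlapped. Rps14, Rps25, Rpl27a and Rpl24 fell by 2.93 (adjusted p = 3.69e-05), 2.43 (adjusted p = 2.17e-05), 1.94 (adjusted p = 0.000139) and 1.82 (adjusted p = 0.00255). Rpl19 was higher in every recurrent library yet was not called in the fit of all groups (1.72, adjusted p = 0.554). Ribosomal protein genes have many near-identical processed copies, and how shared reads were counted is not given in the sources used here, so single members are uncertain. Rpl19 passed with the 6 libraries fitted alone (adjusted p = 0.0159).

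Summed over the 79 tested genes, ribosomal protein transcripts made up 27.7%, 22.5% and 30.1% of the MYC_OFF totals and 21.2%, 23.7% and 25.4% of the MYC_Recur totals, and these shares overlapped. Their makeup differed. The 8 fallen genes held 15.0%, 16.7% and 22.8% of the total in MYC_OFF and 1.7%, 1.8% and 1.0% in MYC_Recur, whereas the other 71 held 12.7%, 5.8% and 7.3% against 19.5%, 21.9% and 24.4%. The split follows the calls, so it describes the composition and is not a test. The median ribosomal protein gene was at 885.9, 420.2 and 530.1 in MYC_OFF and 1422.9, 1771.6 and 2077.9 in MYC_Recur.

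**Figure D4:**
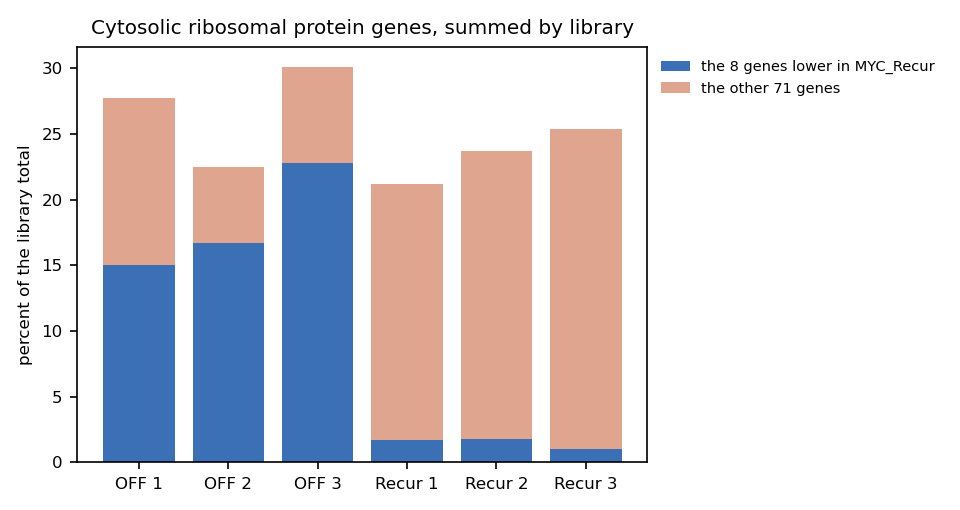
Stacked bars give the percent of each library's total held by cytosolic ribosomal protein genes, split into the 8 that fell and the other 71; each bar is 1 library. The full bars overlap in height between the groups, from 21.2% to 30.1%, and the blue part shrinks from 15.0% or more in MYC_OFF to 1.8% or less in MYC_Recur.

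As deposited, genes of ribosome assembly mostly rose. For the 40 tested ribosome biogenesis genes, 24 calls were upward and 2 downward, around a median difference of 1.03. With rescaling, there were 16 upward, 9 downward and a median of 0.40. Downward calls numbered 1 without MYC_Recur 1 or MYC_Recur 3. In the fit of the 6 libraries alone, 1 fell. Nop58, a core protein of box C/D small nucleolar particles, was at 43.4, 29.1 and 27.2 in MYC_OFF and 165, 168 and 133 in MYC_Recur, a difference of 2.21 (SE 0.25, adjusted p = 2.74e-06). Mybbp1a, a nucleolar regulator of ribosomal RNA synthesis, rose by 2.48 (adjusted p = 3.59e-06), Gar1 of the box H/ACA particles by 1.99 (adjusted p = 6.05e-06) and Nat10, an RNA acetyltransferase, by 2.12 (adjusted p = 1.06e-05). All 4 separated the groups without overlap. Ncl, the nucleolar protein nucleolin, rose by 2.48 (adjusted p = 9.32e-05). Npm1, which encodes nucleophosmin, was at 969, 97.95 and 49.9 against 364, 830.2 and 27169 (3.57, adjusted p = 0.0163), and MYC_Recur 3 was far above the other 5 libraries. Tcof1, the treacle protein that supports transcription of ribosomal DNA, fell from 126, 209 and 269 to 56.3, 34.7 and 16.6 (-2.55, SE 0.38, adjusted p = 3.2e-05). Nop16, a further nucleolar protein, fell by 0.60 (adjusted p = 0.0324). The Npm1 call was lost without MYC_OFF 2, MYC_OFF 3 or MYC_Recur 3 (adjusted p = 0.0594 to 0.127), and that of Nop16 without MYC_OFF 2, MYC_OFF 3, MYC_Recur 1 or MYC_Recur 3 (adjusted p = 0.0514 to 0.15). Npm1 and Nop16 were not called in the fit of the 6 libraries alone (adjusted p = 0.114 to 0.12). The Npm1 difference was 1.70 without MYC_Recur 3. With another scaling of the libraries, the call of Npm1 did not always hold.

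Translation factor genes were called higher in 19 and lower in 1 of 26 tested cases, at a median difference of 1.47. On rescaled values, there were 15 upward and 2 downward, with a median of 0.81. Lower calls came to 2 without MYC_OFF 1. Pabpc1, the main poly(A)-binding protein, was at 119, 135 and 74.7 in MYC_OFF and 843, 957 and 812 in MYC_Recur, a difference of 3.02 (SE 0.34, adjusted p = 2.31e-06). Eif4ebp1, the repressor of cap-dependent initiation controlled by mTORC1, was at 34.9, 22.1 and 21.6 against 163, 112 and 129.5 (2.33, adjusted p = 3.33e-06). Etf1, the release factor, and Eif3b, a scaffold of initiation factor eIF3, rose by 1.71 (adjusted p = 9.67e-06) and 1.85 (adjusted p = 1.08e-05). Eef1b2, an exchange factor for the elongation factor eEF1A, was the fall, from 3304, 3778 and 3935 to 505, 646 and 404 (-2.84, SE 0.35, adjusted p = 5.43e-06). In all 5 the libraries of the groups did not overlap.

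Calls among the 27 tested nucleotide, one-carbon and polyamine genes numbered 12 upward and 4 downward, and the median member differed by 0.80. The rescaled list had 8 upward, 5 downward and a median of 0.14. The count downward was 1 without MYC_OFF 3 and 2 without MYC_OFF 2 or MYC_Recur 1 or MYC_Recur 2 or MYC_Recur 3. Downward, 1 passed with the 6 libraries fitted alone. The share called higher, 44.4%, was near the 41.4% of all genes tested. Umps, which completes uridine monophosphate, was at 7.79, 4.33 and 3.26 in MYC_OFF and 32.5, 31.5 and 55.03 in MYC_Recur, a difference of 2.75 (SE 0.33, adjusted p = 4.31e-06). Gart and Gmps of purine synthesis rose by 2.47 (adjusted p = 5.46e-06) and 2.71 (adjusted p = 8.72e-06). Cad, the enzyme that starts pyrimidine synthesis, was at 13.3, 14.2 and 11.5 against 32.01, 32.5 and 49.01 (1.45, adjusted p = 2.27e-05). In each of these 4 all recurrent libraries were above all MYC_OFF libraries. For polyamines, the limiting enzymes Odc1 and Amd1 rose by 1.45 (adjusted p = 0.000926) and 3.51 (adjusted p = 2.31e-05); Amd1 has a near-identical copy, which leaves its level uncertain. Mthfd2, the mitochondrial folate enzyme, was at 571, 1908 and 459.7 in MYC_OFF and 53.05, 45.8 and 0.79 in MYC_Recur, a difference of -5.59 (SE 1.35, adjusted p = 0.00217), with MYC_Recur 3 the lowest. Shmt1, a cytosolic serine hydroxymethyltransferase, was at 71.6, 272 and 243 against 129, 44.8 and 51.5 (-1.32, adjusted p = 0.0196) and overlapped. The Shmt1 call was lost without MYC_OFF 2, MYC_OFF 3, MYC_Recur 2 or MYC_Recur 3 (adjusted p = 0.0735 to 0.106). The 6 libraries alone gave no call of Shmt1 (adjusted p = 0.108). The call of Odc1 was lost under at least 1 of the other scalings.

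Of 35 tested DNA replication genes, 22 rose and 1 fell, and the median difference was 1.16; after rescaling the counts were 15 and 3 and the median was 0.60. Downward calls numbered 2 without MYC_OFF 1. Lig1, which seals Okazaki fragments, was at 17.9, 12.7 and 15.2 in MYC_OFF and 74.3, 53.2 and 58.1 in MYC_Recur, a difference of 1.95 (SE 0.23, adjusted p = 3.31e-06). Prim1, the primase subunit, Rrm1, the large subunit of ribonucleotide reductase, and Rpa3, the small subunit of replication protein A, rose by 1.87 (adjusted p = 9.57e-06), 2.39 (adjusted p = 1.16e-05) and 1.72 (adjusted p = 1.22e-05). Rpa1, the large subunit of the same protein, fell from 66.2, 159 and 175 to 42.5, 37.9 and 24.4 (-1.82, SE 0.37, adjusted p = 0.000579), so 2 subunits of 1 complex moved in opposite directions. The groups did not overlap for any of the 5.

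The test called 5 of 12 genes of the G1/S transition higher and 2 lower, with a median difference of 0.91. Rescaling gave 4 higher, 3 lower and a median of 0.28. That is 41.7% called higher, against 41.4% of all genes tested. Ccne1, which encodes cyclin E1, was at 3.69, 0.75 and 0.76 in MYC_OFF and 25.3, 17.9 and 29.3 in MYC_Recur, a difference of 3.34 (SE 0.42, adjusted p = 6.47e-06). E2f1, an activator of S-phase genes, was at 3.56, 2.66 and 3 against 14.7, 14 and 18.5 (2.04, adjusted p = 1.09e-05), and Cdk6, a G1 kinase, and E2f8, an atypical repressor of the family, rose by 1.69 (adjusted p = 1.87e-05) and 0.86 (adjusted p = 0.00212). E2f3, another activator, fell from 32.05, 429 and 124 to 0.26, 0.82 and 0.79 (-6.24, SE 1.26, adjusted p = 0.000477). Ccne2, the second cyclin E, was at 19.4, 59.5 and 34.99 against 21.3, 9.85 and 9.57 (-1.37, adjusted p = 0.00441). The first 5 genes did not overlap between groups, whereas Ccne2 did in MYC_OFF 1 and MYC_Recur 1. With another scaling of the libraries, the call of E2f8 did not always hold.

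Among 30 mitosis genes, 21 passed the test upward and 4 downward (median difference 0.97). Rescaled values gave 12 upward, 5 downward and a median of 0.36. Ube2c, the ubiquitin-conjugating enzyme of the anaphase-promoting complex, was at 14.1, 3.57 and 3.24 in MYC_OFF and 159.6, 130.3 and 186 in MYC_Recur, a difference of 4.57 (SE 0.59, adjusted p = 7.86e-06). Ccnb1, cyclin B1, was at 8.68, 3.09 and 3.36 against 52.2, 51.5 and 63.4 (3.34, adjusted p = 4.79e-06). Aurkb, the kinase of the chromosomal passenger complex, and Prc1, which bundles spindle microtubules, rose by 2.61 (adjusted p = 2.09e-06) and 2.13 (adjusted p = 6.28e-06). The proliferation marker Mki67 was at 17.5, 9.61 and 10.2 against 67.2, 40.8 and 44.7 (1.96, adjusted p = 9.1e-06). All 5 separated the groups. Kif20a, a kinesin of cytokinesis, fell from 70.9, 129 and 80.4 to 8.35, 8.29 and 10.6 (-3.19, SE 0.46, adjusted p = 2.3e-05), and Racgap1 fell as well. Incenp, the scaffold that binds Aurora B, fell by 2.45 (adjusted p = 0.00138).

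For the 21 tested cell cycle inhibitor and p53 target genes, 4 calls were upward and 1 downward, around a median difference of 0.36. After rescaling, the list had 1 upward, 4 downward and a median of -0.25. Its sign differed between the scalings. Upward calls numbered 2 without MYC_OFF 2 or MYC_Recur 1; downward calls numbered 2 without MYC_OFF 3 or MYC_Recur 1 or MYC_Recur 3. Ccng1, a p53 target, was at 10.4, 15.1 and 10.8 in MYC_OFF and 54, 43.7 and 57.01 in MYC_Recur (2.01, adjusted p = 0.000123), and Gadd45b, Zmat3 and Sesn1, stress and p53 response genes, rose by 0.94 (adjusted p = 0.0191), 0.68 (adjusted p = 0.0351) and 0.61 (adjusted p = 0.0288). Rbl1, the retinoblastoma relative p107, fell from 19.1, 21.7 and 77.6 to 3.46, 3.34 and 3.16 (-2.93, SE 0.42, adjusted p = 1.94e-05) with no overlap. The Gadd45b call was lost without MYC_Recur 3 (adjusted p = 0.0608), and that of Zmat3 without MYC_OFF 2, MYC_OFF 3, MYC_Recur 1 or MYC_Recur 2 (adjusted p = 0.0686 to 0.206). The Sesn1 call was lost without MYC_OFF 1, MYC_OFF 2 or MYC_Recur 1 (adjusted p = 0.0564 to 0.092). Zmat3 and Sesn1 were not called in the fit of the 6 libraries alone (adjusted p = 0.0891 to 0.145). The Zmat3 difference was 0.40 without MYC_OFF 3. The calls of Gadd45b, Zmat3 and Sesn1 were lost under at least 1 of the other scalings, and the Sesn1 difference turned to -0.06 under median of ratios.

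Apoptosis regulator genes were called higher in 7 and lower in 2 of 25 tested cases, at a median difference of 0.54. With rescaling, there were 4 upward and 4 downward, with a median of 0.02. Under median-of-ratios scaling the sign of the median changed, to -0.03. Mcl1, a survival protein of the BCL-2 family, was at 14.1, 6.79 and 7.7 in MYC_OFF and 65.7, 58.2 and 70.2 in MYC_Recur, a difference of 2.70 (SE 0.28, adjusted p = 1.65e-06). Bak1 and Bad, which promote cell death, rose by 1.58 (adjusted p = 0.000304) and 1.03 (adjusted p = 0.000424), and the caspase inhibitor Xiap by 0.89 (adjusted p = 0.00179). Cycs, the cytochrome c gene, fell from 112, 184 and 119.7 to 23.4, 24.4 and 19.9 (-2.53, SE 0.32, adjusted p = 6.63e-06), and Birc3, an inhibitor-of-apoptosis protein, by 2.13 (adjusted p = 0.00294). All 6 had libraries that did not overlap between groups. At least 1 of the other scalings ended the calls of Bad and Xiap.

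As deposited, energy metabolism genes were mostly higher in recurrent tumors. The shares rising were 77.8% for glycolysis, 58.3% for gluconeogenesis and glycogen and 63% for the respiratory chain, beside 41.4% of all genes tested. Rescaled, they were 55.6%, 25% and 47.8%, beside 23.1%, so gluconeogenesis and glycogen was then near the background. Calls among the 18 tested glycolysis genes numbered 14 upward and 0 downward, and the median member differed by 1.5. On rescaled values, there were 10 upward, 0 downward and a median of 0.91. Pgk1, which makes ATP in the lower part of the pathway, was at 92.6, 81.8 and 80.5 in MYC_OFF and 366, 489.6 and 280.3 in MYC_Recur, a difference of 2.11 (SE 0.25, adjusted p = 3.6e-06). Gpi1 and Aldoa, which act in the upper steps of the pathway, rose by 2.71 (adjusted p = 1.21e-05) and 2.11 (adjusted p = 5.14e-06). The glucose transporter Slc2a1 was at 5.79, 2.33 and 2.74 against 21.1, 20.9 and 17.6 (2.25, adjusted p = 3.44e-05), and Hk2, the hexokinase typical of tumors, rose by 1.26 (adjusted p = 0.0151). No overlap was present for these 5. Of 12 tested genes of gluconeogenesis and glycogen, 7 rose and 0 fell, and the median difference was 1.2; after rescaling the counts were 3 and 0 and the median was 0.57. Slc2a2, the hepatocyte glucose transporter, was at 3.6, 1.55 and 1.76 against 34.7, 21.4 and 27.02 (3.15, SE 0.43, adjusted p = 1.36e-05). Slc37a4, which carries glucose 6-phosphate into the endoplasmic reticulum, rose by 2.30 (adjusted p = 1.54e-05) and pyruvate carboxylase Pcx by 1.11 (adjusted p = 0.000678). Pck1, the limiting enzyme of gluconeogenesis, rose from 2.38, 0.55 and 1.24 to 9.61, 5.53 and 3.74 (1.60, adjusted p = 0.0131). The Hk2 call was lost without MYC_Recur 1 (adjusted p = 0.06), and that of Pck1 without MYC_OFF 2 or MYC_Recur 1 (adjusted p = 0.0626 to 0.0687). With another scaling of the libraries, the calls of Hk2, Pcx and Pck1 did not always hold.

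The test called 29 of 46 respiratory chain genes higher and 5 lower, with a median difference of 1.28. Once rescaled, the list had 22 higher, 5 lower and a median of 0.62. Lower calls came to 3 without MYC_OFF 2 or MYC_Recur 2. Cox5b of complex IV was at 75.5, 30.7 and 31.97 in MYC_OFF and 451, 351 and 466 in MYC_Recur, a difference of 3.29 (SE 0.34, adjusted p = 1.38e-06). Ndufa9 and Ndufs1 of complex I rose by 3.07 (adjusted p = 1.09e-06) and 2.69 (adjusted p = 1.45e-06), and Atp5f1 of ATP synthase by 2.77 (adjusted p = 1.02e-06). Uqcrq of complex III fell from 1167, 2017 and 1558 to 293, 424 and 396 (-2.07, SE 0.32, adjusted p = 3.96e-05). Atp5g1, a gene for the c ring of ATP synthase, fell from 433, 1026 and 406 to 144, 163 and 83.8 (-2.16, adjusted p = 0.000115). The 2 fallen genes, like the 4 that rose, did not overlap between groups.

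Among 31 proteasome genes, 19 passed the test upward and 4 downward (median difference 1.30). Rescaling gave 14 upward, 7 downward and a median of 0.64. Downward, 2 passed with the 6 libraries fitted alone. After Psma6, the smallest p-values belonged to Psmd14, the lid deubiquitinase, at 8.09, 5.44 and 3.23 against 51.2, 39.1 and 51.1 (2.93, SE 0.28, adjusted p = 8.53e-07), Psmd11, another lid subunit (2.51, adjusted p = 1.28e-06), and the base ATPase Psmc5 (2.52, adjusted p = 1.95e-06). All 3 separated the groups. Psmc3, a second base ATPase, was at 189, 537 and 171 in MYC_OFF and 120.2, 88.3 and 88.5 in MYC_Recur (-1.40, SE 0.33, adjusted p = 0.00181), and the core subunit Psma5 fell by 1.45 (adjusted p = 0.00568). With the 6 libraries fitted alone, Psma5 did not pass (adjusted p = 0.0805). The Psmc3 difference was -0.87 without MYC_OFF 2. The Psma5 difference was -0.84 without MYC_Recur 3.

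For the 36 tested splicing factor genes, 26 calls were upward and 3 downward, around a median difference of 1.15. Rescaled values gave 12 upward, 5 downward and a median of 0.49. Snrnp200, the helicase of the U5 particle, was at 1.82, 0 and 0.12 in MYC_OFF and 33.2, 34.5 and 26.8 in MYC_Recur, a difference of 4.46 (SE 0.39, adjusted p = 4.23e-07). Snrpd2 of the Sm ring, Sf3a1 of the U2 particle and Srsf5, an SR protein, rose by 3.16 (adjusted p = 5.27e-06), 2.48 (adjusted p = 4.66e-06) and 2.45 (adjusted p = 5.27e-06). Snrpf, another Sm ring protein, fell from 7674, 3238 and 1226 to 266, 196 and 204 (-3.82, SE 0.74, adjusted p = 0.000355). Sf3b5 of the U2 particle fell from 381, 681 and 730.2 to 37.5, 60.4 and 75.7 (-3.35, adjusted p = 2.21e-06). The Sm ring and the U2 particle each held members with opposite directions, and none of the 6 overlapped.

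Chaperone and unfolded protein response genes were called higher in 17 and lower in 3 of 36 tested cases, at a median difference of 0.85. After rescaling, the list had 11 upward and 4 downward, with a median of 0.20. Calr, the calcium-binding chaperone calreticulin, was at 149, 59.4 and 100.2 in MYC_OFF and 619, 583 and 865 in MYC_Recur, a difference of 2.81 (SE 0.31, adjusted p = 2.33e-06). Cct2 of the cytosolic chaperonin, Pdia3, a disulfide isomerase, and Asns, asparagine synthetase and a target of the stress factor ATF4, rose by 2.24 (adjusted p = 3.32e-06), 1.86 (adjusted p = 4.51e-06) and 2.62 (adjusted p = 9.65e-06). Hsp90aa1, the inducible cytosolic HSP90, fell from 4992, 5510.2 and 5842 to 658, 947 and 717 (-2.83, SE 0.42, adjusted p = 2.66e-05). Hspa1b, an inducible HSP70 with a near-identical neighbour Hspa1a, fell from 6.85, 40.9 and 22.1 to 0.83, 0.72 and 0.38 (-3.59, adjusted p = 0.000275). The 6 genes did not overlap between the groups.

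Calls among the 38 tested autophagy and lysosome genes numbered 19 upward and 3 downward, and the median member differed by 0.78. With rescaling, there were 11 upward, 8 downward and a median of 0.18. Gabarap, an ATG8 protein of autophagosomes, was at 12.5, 5.04 and 6.47 in MYC_OFF and 108, 81 and 92.05 in MYC_Recur, a difference of 3.47 (SE 0.38, adjusted p = 2.01e-06). Nbr1, a cargo receptor, Ctsl, the lysosomal protease cathepsin L, and Wipi2, which recruits the conjugation machinery, rose by 3.59 (adjusted p = 5.32e-06), 3.01 (adjusted p = 4.23e-06) and 2.09 (adjusted p = 2.01e-05). Besides Ulk1, the falls were Atg4b, the protease that processes ATG8 proteins, and Lamp2, a lysosomal membrane protein (-2.57, adjusted p = 0.000908). Atg4b was at 7.11, 6.53 and 5.25 against 0.75, 2.42 and 1.02 (-1.66, adjusted p = 0.00088). Every one of the first 5 separated the groups.

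Of 34 tested plasma protein genes of hepatocytes, 20 rose and 2 fell, and the median difference was 1.41; after rescaling the counts were 15 and 2 and the median was 0.76. Downward calls numbered 1 without MYC_OFF 1 or MYC_Recur 1. Alb, albumin (chr5:90460897-90476602, plus strand, GRCm38), was at 411, 298 and 255 in MYC_OFF, a mean of 321 ± 80.4 (SD, n = 3), and 1409, 1769 and 2280.3 in MYC_Recur, a mean of 1819 ± 438 (SD, n = 3), a difference of 2.50 (SE 0.37, adjusted p = 3.04e-05). Gc, the vitamin D-binding protein, was at 272, 227 and 273 against 1117, 1304 and 1209 (2.23, adjusted p = 1.64e-05). Vtn, vitronectin, and Rbp4, the retinol carrier, rose by 2.92 (adjusted p = 8.64e-06) and 1.90 (adjusted p = 3.33e-05). Apoh, apolipoprotein H, ran the other way, at 2880.2, 3293 and 2830.2 against 279.6, 75.6 and 33.3 (-5.05, SE 0.59, adjusted p = 3.48e-06). Those 5 did not overlap. Serpina1b fell, with MYC_OFF 1 the highest, at 2358, 536 and 572 against 253, 445 and 294 (-1.48, adjusted p = 0.0131); the Serpina1 genes are near-identical copies, and their split is uncertain. In these bulk samples, fewer cells of a type and less RNA per cell cannot be told apart. The Serpina1b call was lost without MYC_OFF 1 or MYC_Recur 1 (adjusted p = 0.0537 to 0.0927). The 6 libraries alone gave no call of Serpina1b (adjusted p = 0.0766). The Serpina1b difference was -0.78 without MYC_OFF 1.

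The test called 15 of 25 hepatocyte markers higher and 2 lower, with a median difference of 1.06. The rescaled list had 8 higher, 3 lower and a median of 0.39. As deposited, 60% rose, beside 41.4% of all genes tested. Rescaled, 32% rose, beside 23.1%. With these 6 libraries fitted alone, 1 fell. As deposited, their summed level was 9188 to 9971 in MYC_OFF and 12756 to 15479 in MYC_Recur, and the groups did not overlap. The same was so without Apoh and Alb, the 2 markers whose means differed most (5596 to 6680 in MYC_OFF and 11067 to 13635 in MYC_Recur). The factors by which rescaling divides a library were 0.69 to 0.89 in MYC_OFF and 1.144 to 1.281 in MYC_Recur. The separation of these sums therefore depends on the scaling. Hpd of tyrosine breakdown was at 49.9, 31.9 and 33.1 against 199, 135 and 175 (2.13, adjusted p = 2.84e-05), and Apoa1, the main protein of high-density lipoprotein, at 506, 336 and 376 against 1775, 1723 and 1796 (2.14, adjusted p = 3.37e-05). Serpina1c, an alpha-1-antitrypsin gene, rose by 2.63 (adjusted p = 0.000142). Hnf4a, the factor that defines hepatocytes, was at 82.1, 63.5 and 87.9 in MYC_OFF and 60.4, 62.8 and 64.1 in MYC_Recur, and was not called (-0.30, adjusted p = 0.394). Of the 26 markers, Tdo2 alone was under the minimum for testing. Hnf4a passed under 3 of the other scalings (adjusted p = 0.0151 to 0.0214).

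Among 21 liver transcription factor genes, 12 passed the test upward and 2 downward (median difference 0.97). Once rescaled, the list had 6 upward, 3 downward and a median of 0.46. As deposited, 57.1% rose, beside 41.4% of all genes tested. Rescaled, 28.6% rose, beside 23.1%, so the list was then near the background. The count downward was 1 without MYC_OFF 1 or MYC_OFF 3 or MYC_Recur 1 or MYC_Recur 3. Rxra, the partner of many nuclear receptors, was at 3.4, 1.2 and 1.31 in MYC_OFF and 27.1, 20.1 and 19.1 in MYC_Recur, a difference of 3.02 (SE 0.50, adjusted p = 8.19e-05). Cebpb, a factor of regeneration and the acute phase, and Prox1, a regulator of hepatoblasts, rose by 1.92 (adjusted p = 4.28e-06) and 1.32 (adjusted p = 9.98e-05). These 3 separated the groups. The 2 falls were those of Foxa2 and Foxa1, which encode pioneer factors. Foxa2 was at 290.0, 802 and 998 against 113, 202 and 93.3 (-2.25, adjusted p = 0.0104) and Foxa1 at 9.97, 1.52 and 2.43 against 0.21, 0.49 and 0.25 (-1.80, adjusted p = 0.0288), both without overlap. The Foxa2 call was lost without MYC_OFF 3 (adjusted p = 0.0502), and that of Foxa1 without MYC_OFF 1, MYC_Recur 1 or MYC_Recur 3 (adjusted p = 0.0639 to 0.159). The Foxa1 difference was -1.17 without MYC_OFF 1.

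For the 33 tested complement and coagulation genes, 16 calls were upward and 2 downward, around a median difference of 0.71. Rescaling gave 9 upward, 5 downward and a median of 0.30. Downward calls numbered 1 without MYC_OFF 1. Proc, protein C, was at 5.13, 0.93 and 0.73 in MYC_OFF and 68.9, 42.9 and 61.1 in MYC_Recur, a difference of 4.39 (SE 0.60, adjusted p = 1.22e-05). F13b, a clotting factor subunit, C8b of the membrane attack complex and Serpinf2, the plasmin inhibitor, rose by 2.73 (adjusted p = 5.08e-06), 2.50 (adjusted p = 2.66e-06) and 2.28 (adjusted p = 4.14e-06). C8a, the partner chain of C8b, fell from 219, 77.2 and 36.5 to 11.4, 15.5 and 4.43 (-3.06, SE 0.76, adjusted p = 0.00271), and C9, which joins the same complex, fell by 2.45 (adjusted p = 0.0102). The 6 genes separated the groups. Acute phase genes were called higher in 2 and lower in 0 of 18 tested cases, at a median difference of 0.53. The share rising was 11.1%, beside 41.4% of all genes tested. Rescaled values gave 1 upward and 0 downward, with a median of -0.09. The direction of the median thus depended on the scaling. Upward, 7 of the 18 passed with the 6 libraries fitted alone, where 34.7% of all genes rose. Library values were higher in MYC_Recur without overlap for 9 of the 18, beside 44.9% of all genes. The low share thus belonged to the fit of all groups. Crp and Saa2, 2 circulating reactants, were the calls, at 4.12, 0.75 and 0.85 against 22, 14.5 and 17.2 (2.87, adjusted p = 3.37e-05) and 0.8, 0.33 and 0.24 against 3.92, 3.07 and 4.28 (1.72, adjusted p = 0.0136). The C9 call was lost without MYC_OFF 1 (adjusted p = 0.0521). Under some other scalings Saa2 did not pass the test.

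Calls among the 35 tested drug metabolism genes numbered 10 upward and 1 downward, and the median member differed by 0.63. The share rising was 28.6%, beside 41.4% of all genes tested. With the 6 libraries fitted alone, 13 of the 35 rose, where 34.7% of all genes did. Library values were higher in MYC_Recur without overlap for 15, beside 44.9% of all genes. The low share thus belonged to the fit of all groups. After rescaling, the list had 6 upward, 1 downward and a median of 0.04. Under median-of-ratios scaling the sign of the median changed, to -0.01. Fmo1, a flavin monooxygenase, was at 3.13, 1.97 and 0.78 in MYC_OFF and 30.4, 17.4 and 25.8 in MYC_Recur, a difference of 3.16 (SE 0.62, adjusted p = 0.000373). Ugt2b34, a glucuronosyltransferase, Cyp2d26, a cytochrome P450, and Gstm1, a glutathione transferase, rose by 2.36 (adjusted p = 1.16e-05), 2.08 (adjusted p = 5.56e-05) and 1.92 (adjusted p = 0.000511); these families hold close paralogs. Cyp2a5, a P450 known to be induced in injured liver, fell from 36.1, 446 and 59.05 to 2.81, 0.85 and 7.36 (-4.68, SE 0.84, adjusted p = 0.000157), and MYC_OFF 2 was its highest library. None of the 5 overlapped. Of 22 tested bile acid genes, 7 rose and 1 fell, and the median difference was 0.65; after rescaling the counts were 3 and 1 and the median was 0.17. Upward calls numbered 4 without MYC_OFF 3 or MYC_Recur 1. Fgfr4 and Klb, the receptor and co-receptor for the intestinal hormone that restrains bile acid synthesis, rose by 1.93 (adjusted p = 5.37e-06) and 1.51 (adjusted p = 0.000339). Hsd3b7, a bile acid synthesis enzyme, and Abcc3, a basolateral exporter, rose by 1.70 (adjusted p = 1.05e-05) and 0.91 (adjusted p = 0.00803). Abcc2, the canalicular exporter, fell from 11.3, 16.1 and 27.1 to 5.86, 7.01 and 5.25 (-1.37, adjusted p = 0.00376). Cyp7a1, the rate-limiting enzyme of bile acid synthesis, was at 2.85, 3.32 and 1.75 and 3.3, 2.83 and 2.59, with overlap and no call (0.12, adjusted p = 0.899), and its difference was -0.43 to -0.36 under the 3 composition-based scalings. The call of Abcc3 was lost under at least 1 of the other scalings.

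The test called 15 of 31 fatty acid oxidation and ketogenesis genes higher and 2 lower, with a median difference of 0.95. On rescaled values, there were 5 higher, 4 lower and a median of 0.32. Lower calls came to 1 without MYC_OFF 3 or MYC_Recur 3. Hadh, a beta-oxidation dehydrogenase, was at 62.7, 42.5 and 40.05 in MYC_OFF and 308, 352 and 584 in MYC_Recur, a difference of 3.04 (SE 0.29, adjusted p = 8.14e-07). Eci1, Acadl and Acat1 of the same mitochondrial pathway rose by 1.96 (adjusted p = 1.35e-05), 1.56 (adjusted p = 8.59e-05) and 1.80 (adjusted p = 0.000252). Acads, the short-chain dehydrogenase, fell from 154, 74.8 and 46.96 to 22.1, 19.6 and 11.6 (-2.18, SE 0.35, adjusted p = 5.33e-05), and Etfa, which accepts its electrons, fell by 0.94 (adjusted p = 0.0163). All 6 separated the groups. Cpt1a, the limiting enzyme of fatty acid import, was not called, at 40.4, 80.98 and 83.5 against 56.7, 23.1 and 27.8 (-0.95, adjusted p = 0.08). The Etfa call was lost without MYC_OFF 3 or MYC_Recur 3 (adjusted p = 0.0528 to 0.0614). Cpt1a passed under 3 of the other scalings (adjusted p = 0.0106 to 0.0138) and without MYC_OFF 1 or MYC_Recur 1 (adjusted p = 0.0283 to 0.0309).

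Among 40 lipid synthesis genes, 19 passed the test upward and 2 downward (median difference 0.71). The rescaled list had 11 upward, 5 downward and a median of 0.11. Scd2, a fatty acid desaturase, was at 76.01, 32.8 and 39.8 in MYC_OFF and 360.0, 296 and 358 in MYC_Recur, a difference of 2.84 (SE 0.34, adjusted p = 4.61e-06). Acaca, the limiting carboxylase of fatty acid synthesis, and Fdps of the isoprenoid pathway rose by 2.02 (adjusted p = 4.92e-06) and 1.77 (adjusted p = 1.47e-05). Acly, which supplies cytosolic acetyl-CoA, fell from 51.8, 136 and 223 to 33.8, 25.7 and 23.7 (-2.05, SE 0.61, adjusted p = 0.00874), and Fads2, a polyunsaturated fatty acid desaturase, fell by 1.99 (adjusted p = 0.00061). Libraries of the 2 groups did not overlap for these 5 genes. Me1, which supplies NADPH, was at 6.86, 6.78 and 7.67 against 1.17, 0.92 and 0.25 (-2.22, adjusted p = 0.104). The Acly call was lost without MYC_OFF 3 (adjusted p = 0.0545). Me1 passed with the 6 libraries fitted alone (adjusted p = 0.00173) and with the 9 new libraries fitted alone (adjusted p = 0.003).

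For the 40 tested urea cycle and amino acid genes, 18 calls were upward and 2 downward, around a median difference of 0.83. Once rescaled, the list had 10 upward, 3 downward and a median of 0.28. In the fit of the 6 libraries alone, 1 fell. Gldc, the decarboxylase of the glycine cleavage system, was at 6.58, 1.49 and 1.76 in MYC_OFF and 94.7, 61.4 and 76.2 in MYC_Recur, a difference of 4.37 (SE 0.48, adjusted p = 2.25e-06). Amt, the aminomethyltransferase of that system, fell from 381, 567 and 75.7 to 14.9, 113 and 8.82 (-3.29, SE 0.78, adjusted p = 0.0019) and overlapped. Slc25a15, the ornithine carrier, Fah of tyrosine breakdown and Ahcy, which clears S-adenosylhomocysteine, rose by 3.59 (adjusted p = 1.38e-06), 3.59 (adjusted p = 2.47e-06) and 2.71 (adjusted p = 5.35e-06). Ass1 of the urea cycle was at 1601, 2801 and 2826 against 978, 1411 and 397 (-1.51, adjusted p = 0.00554). Cps1, the limiting enzyme of the cycle, was at 56.9, 32.6 and 37.5 against 67.4, 76.9 and 70.6 and was not called (0.78, adjusted p = 0.211). Ass1 was not called in the fit of the 6 libraries alone (adjusted p = 0.0527). The Ass1 difference was -0.99 without MYC_Recur 3. Cps1 passed with the 9 new libraries fitted alone (adjusted p = 0.0347).

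Genes of fetal liver, progenitors and bile ducts moved both ways. Oncofetal and progenitor genes were called higher in 6 and lower in 2 of 17 tested cases, at a median difference of 0.97. Rescaling gave 2 upward and 3 downward, with a median of 0.42. Higher calls came to 3 without MYC_OFF 3 or MYC_Recur 1. Igf2, the fetal growth factor, was at 1015, 516 and 471 in MYC_OFF and 1355, 1882 and 3559.6 in MYC_Recur (1.73, SE 0.46, adjusted p = 0.00445). Igf2bp3, an oncofetal RNA-binding protein, was at 2.14, 0.21 and 5.67 against 27.1, 7.49 and 21.6 (2.58, adjusted p = 0.000583), and the surface protein Cd44 and the factor Sox4 rose by 1.74 (adjusted p = 2.37e-05) and 0.98 (adjusted p = 0.0244). Each of the 4 was higher in every recurrent library. Hmga1, a chromatin protein, fell from 1808, 5072 and 2067 to 334, 510.4 and 247 (-2.93, SE 0.54, adjusted p = 0.000198), and Cd24a, a progenitor surface marker, by 2.44 (adjusted p = 2.73e-05). Afp, alpha-fetoprotein, was at 796, 318 and 439 against 1554, 1896 and 2969; the libraries did not overlap, but the fit of all groups gave no call (2.10, adjusted p = 0.236). Gpc3, an oncofetal proteoglycan, was at 9.87, 2.33 and 2.6 against 1.59, 1.11 and 0.66 (-1.28, adjusted p = 0.0829). Calls among the 10 tested biliary genes numbered 3 upward and 1 downward, and the median member differed by 0.62. Rescaled values gave 2 upward, 1 downward and a median of 0.03. Under median-of-ratios scaling the sign of the median changed, to -0.04. Krt18 and Krt8 encode partner keratins of simple epithelia, and both have processed copies whose shared reads leave their values uncertain. Krt18 was at 2023, 2054 and 1864 in MYC_OFF and 101, 26.98 and 15.4 in MYC_Recur (-5.78, SE 0.60, adjusted p = 1.45e-06), whereas Krt8 was at 39.4, 24.4 and 10.8 against 70.5, 88.4 and 110.3 (1.96, SE 0.41, adjusted p = 0.000709). Spp1, osteopontin, rose by 0.97 (adjusted p = 0.033). The Sox4 call was lost without MYC_OFF 3 or MYC_Recur 1 (adjusted p = 0.0653 to 0.111), and that of Spp1 without MYC_OFF 2, MYC_OFF 3, MYC_Recur 1 or MYC_Recur 2 (adjusted p = 0.0695 to 0.135). With the 6 libraries fitted alone, Spp1 did not pass (adjusted p = 0.0819). The calls of Igf2, Sox4 and Spp1 were lost under at least 1 of the other scalings. Afp passed with the 6 libraries fitted alone (adjusted p = 0.0085) and with the 9 new libraries fitted alone (adjusted p = 0.00312). Gpc3 passed under 3 of the other scalings (adjusted p = 0.0188 to 0.0225) and with the 9 new libraries fitted alone (adjusted p = 0.0357).

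Of 14 tested genes of epithelial-mesenchymal transition, 5 rose and 1 fell, and the median difference was 0.31; after rescaling the counts were 4 and 3 and the median was -0.27. The direction of the median thus depended on the scaling. Downward calls numbered 0 without MYC_OFF 2 or MYC_OFF 3 or MYC_Recur 2 or MYC_Recur 3. The genes with the smallest p were largely epithelial. Cdh1, E-cadherin, was at 11.6, 7.7 and 7.83 in MYC_OFF and 102, 84.2 and 98.3 in MYC_Recur, a difference of 3.27 (SE 0.61, adjusted p = 0.000242). Cldn1, a tight junction protein, and Esrp2, an epithelial splicing factor, rose by 3.16 (adjusted p = 8.28e-05) and 1.55 (adjusted p = 7.44e-05), and Fn1, fibronectin, a mesenchymal and liver product, by 2.17 (adjusted p = 0.000384). Cdh2, N-cadherin, fell from 32.2, 49.6 and 44.2 to 20.5, 22.4 and 23.1 (-0.88, adjusted p = 0.0449). None of these overlapped. The test called 7 of 30 matrix genes higher and 3 lower, with a median difference of 0.29. With rescaling, there were 2 higher, 9 lower and a median of -0.26. Its sign differed between the scalings. Higher calls came to 4 without MYC_OFF 3 or MYC_Recur 1. Col6a2, a collagen VI chain, fell from 9.38, 16.1 and 14.3 to 0.22, 1.06 and 0.07 (-3.33, SE 0.48, adjusted p = 1.98e-05), and the fibrillin gene Fbn1 by 2.35 (adjusted p = 0.000189). The basement membrane chains Col4a2 and Col4a1 and the ligand Tgfb1 rose by 1.45 (adjusted p = 0.00101), 0.66 (adjusted p = 0.0119) and 1.05 (adjusted p = 0.00618). Col15a1, another collagen, is listed at 0 in all MYC_OFF libraries and was at 2.71, 7.98 and 1.62 in MYC_Recur. The Cdh2 call was lost without MYC_OFF 2, MYC_OFF 3, MYC_Recur 1, MYC_Recur 2 or MYC_Recur 3 (adjusted p = 0.0735 to 0.134). The 6 libraries alone gave no call of Col4a1 (adjusted p = 0.0702). At least 1 of the other scalings ended the calls of Col4a2, Col4a1 and Tgfb1, and the Col4a1 difference turned to -0.07 under median of ratios.

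Among 13 hypoxia response genes, 5 passed the test upward and 1 downward (median difference 0.48). On rescaled values, there were 3 upward, 3 downward and a median of -0.11. The direction of the median thus depended on the scaling. The count upward was 3 without MYC_OFF 2; the count downward was 2 without MYC_OFF 2 or MYC_Recur 2. Upward, 3 passed with the 6 libraries fitted alone. Vegfa, the angiogenic growth factor, was at 3.21, 1.57 and 1.08 in MYC_OFF and 11.8, 6.09 and 17.99 in MYC_Recur (2.09, SE 0.38, adjusted p = 0.000194). Ankrd37 and Ndrg1, hypoxia-inducible genes, rose by 2.67 (adjusted p = 9.32e-06) and 1.44 (adjusted p = 0.000511), and Arnt, the HIF dimer partner, by 0.83 (adjusted p = 0.0123). Bnip3, a hypoxia-inducible mitophagy gene, fell from 193, 782 and 297 to 115, 94.1 and 77.5 (-1.90, SE 0.37, adjusted p = 0.000312). Both Vegfa and Bnip3 separated the groups. For the 22 tested interferon response genes, 8 calls were upward and 3 downward, around a median difference of 0.54. The rescaled list had 3 upward, 6 downward and a median of 0.11. Upward calls numbered 5 without MYC_Recur 1. The interferon-induced genes Gbp2 and Isg15 and the interferon factor Irf9 rose by 1.55 (adjusted p = 1.36e-05), 1.55 (adjusted p = 0.000101) and 1.29 (adjusted p = 0.000454), and the GTPase gene Irgm1 by 1.19 (adjusted p = 0.00905). The interferon-induced genes Ifi44 and Gbp7 fell by 1.46 (adjusted p = 0.000946) and 1.23 (adjusted p = 0.00199). Levels were low, with Gbp2 at 1.3, 0.88 and 0.81 against 4.66, 5.22 and 4.6. The Arnt call was lost without MYC_OFF 2 (adjusted p = 0.098). Arnt was not called in the fit of the 6 libraries alone (adjusted p = 0.0977). The Arnt difference was 0.49 without MYC_OFF 2. With another scaling of the libraries, the calls of Arnt and Irgm1 did not always hold.

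Markers of other liver and blood cells were read for their own levels, and their sums use deposited values. Rises made up 22.2% of macrophage, 30% of neutrophil, 10% of T and NK, 13.3% of endothelial and 9.09% of stellate markers. The background was 41.4%. Falls made up 22.2%, 40%, 30%, 26.7% and 27.3% of these lists, beside 11.2% of all genes. Rescaled, the falls were 38.9%, 60%, 60%, 33.3% and 36.4%, beside 21.3%. Macrophage and Kupffer cell markers were called higher in 4 and lower in 4 of 18 tested cases, at a median difference of 0.13. Once rescaled, the list had 2 upward and 7 downward, with a median of -0.48. The direction of the median thus depended on the scaling. The summed level of the list was 720.2 to 806 in MYC_OFF and 751 to 1022 in MYC_Recur. C1qb and Mertk, of complement and efferocytosis, rose by 2.37 (adjusted p = 1.79e-05) and 2.36 (adjusted p = 8.95e-05), and the surface proteins EMR1 (F4/80) and Timd4 by 0.96 (adjusted p = 0.0104) and 0.92 (adjusted p = 0.0117). The other C1q genes of the list, C1qa (-0.13, adjusted p = 0.706) and C1qc (-0.02, adjusted p = 0.964), were not called. Rescaled, C1qa fell by 0.79 (adjusted p = 0.0315) and C1qc was not called (-0.68, adjusted p = 0.132). Cd163, the hemoglobin scavenger receptor, was at 10.1, 5.84 and 6.94 against 1.02, 1.11 and 1.37 (-1.97, adjusted p = 2.48e-05), and SFPI1, the myeloid factor PU.1, at 17.4, 27.3 and 29.1 against 4.58, 6.61 and 10.6 (-1.66, adjusted p = 0.00111). The Kupffer markers Clec4f and Vsig4 were under the minimum for testing. Calls among the 10 tested neutrophil and monocyte markers numbered 3 upward and 4 downward, and the median member differed by -0.90. Rescaling gave 1 upward, 6 downward and a median of -1.36. Downward, 2 passed with the 6 libraries fitted alone. Summed, the list was at 103 to 320.4 in MYC_OFF and 93.2 to 120.2 in MYC_Recur. The higher MYC_OFF sums came from Cxcr2 and Csf3r, whose means differed most. Without these 2 the deposited sums were 62 to 72.9 in MYC_OFF and 73.1 to 91.1 in MYC_Recur, apart by a narrow margin. Rescaling divides MYC_OFF libraries by 0.69 to 0.89 and MYC_Recur libraries by 1.144 to 1.281. Both the separation and the order of these sums therefore depend on the scaling. S100a9, an abundant granulocyte protein, and Plac8 rose by 2.90 (adjusted p = 1.22e-05) and 1.74 (adjusted p = 0.00668), while Csf3r, the granulocyte growth factor receptor, fell from 46.6, 74.8 and 8.95 to 0.34, 2.16 and 0.8 (-4.07, adjusted p = 3.26e-05). S100a8, the partner of S100a9, was not called, at 2.59, 1.73 and 1.4 against 1.17, 4.89 and 1.78 (0.20, adjusted p = 0.635). The adhesion molecule Itgam and the granule peptide Camp fell by 1.41 (adjusted p = 0.00547) and 1.83 (adjusted p = 0.00861). The Timd4 call was lost without MYC_OFF 2 (adjusted p = 0.0616), and that of Camp without MYC_OFF 1 (adjusted p = 0.0551). With the 6 libraries fitted alone, Camp did not pass (adjusted p = 0.0558). The Camp difference was -0.97 without MYC_OFF 1. Under some other scalings EMR1, Timd4 and Plac8 did not pass the test.

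Of 10 tested T and NK cell markers, 1 rose and 3 fell, and the median difference was -0.33; after rescaling the counts were 1 and 6 and the median was -0.75. Downward calls numbered 1 without MYC_OFF 1 or MYC_Recur 3. In the fit of the 6 libraries alone, 1 fell. The list summed to 45.8 to 60.3 in MYC_OFF and 24.04 to 125 in MYC_Recur, and 4 of its 30 genes were at 0 in all 6 libraries. Foxp3 alone was at 12.04, 92.65 and 4.74 in MYC_Recur. Without Foxp3 and Thy1, whose means differed most, the sums were 16.9 to 48.3 in MYC_OFF and 18.2 to 31.4 in MYC_Recur, with overlap. Thy1, also a fibroblast marker, fell from 6.7, 25.2 and 17.4 to 1.69, 1.06 and 1.12 (-2.77, adjusted p = 3.89e-05), Lck and Ccl5 fell by 1.05 (adjusted p = 0.0312) and 1.19 (adjusted p = 0.032), and Cd247, the T cell receptor zeta chain, rose by 1.31 (adjusted p = 0.000107). Cd4, Cd8a and Cd3e were under the minimum. Of 17 B and plasma cell markers 2 were tested, and Cd79b, a chain of the B cell receptor, was at 0.05, 0 and 0.05 against 9.75, 1.15 and 29.1 (3.10, adjusted p = 0.000224), while Ms4a1 and Blk were at 0 in all 6 libraries. Cd79a, the partner chain of Cd79b, was under the minimum, at 0.24, 1.79 and 0.55 against 0.28, 0.28 and 0.21. Mzb1, also not tested, was at 15.85, 1.77 and 0.24 against 0.45, 0.41 and 0.7. Of 12 dendritic cell markers 3 were tested and limma called none (adjusted p = 0.67 to 0.944), while 1 was called without MYC_OFF 3. The Lck call was lost without MYC_OFF 1, MYC_OFF 3, MYC_Recur 2 or MYC_Recur 3 (adjusted p = 0.0786 to 0.172), and that of Ccl5 without MYC_OFF 1, MYC_OFF 2, MYC_Recur 2 or MYC_Recur 3 (adjusted p = 0.0608 to 0.187). The 6 libraries alone gave no call of Lck and Ccl5 (adjusted p = 0.0879 to 0.104). The differences of Lck and Ccl5 were -0.65 and -0.71 without MYC_OFF 1.

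The test called 2 of 15 endothelial markers higher and 4 lower, with a median difference of -0.15. After rescaling, the list had 1 higher, 5 lower and a median of -0.54. Their summed level was 188 to 277 in MYC_OFF and 80.8 to 143 in MYC_Recur, without overlap. The separation came from Pecam1 and Sox18: without these 2 the sums were 70.2 to 177 in MYC_OFF and 76.3 to 127 in MYC_Recur, which overlap. Pecam1, the junction protein CD31, fell from 24.7, 81.6 and 52.7 to 4.39, 3.37 and 2.46 (-3.48, SE 0.58, adjusted p = 8.71e-05), and Sox18 and Tek, an endothelial factor and the angiopoietin receptor, by 3.30 (adjusted p = 0.000881) and 1.36 (adjusted p = 0.0059). Emcn, endomucin, fell by 1.28 (adjusted p = 0.0324). Gpihbp1 and Plvap, 2 capillary proteins, rose by 1.56 (adjusted p = 0.00103) and 1.74 (adjusted p = 0.00318). The part of these marker lists in the other results was not tested. Among 11 stellate cell and fibroblast markers, 1 passed the test upward and 3 downward (median difference 0.29). With rescaling, there were 0 upward, 4 downward and a median of -0.26. The direction of the median thus depended on the scaling. The count upward was 0 without MYC_OFF 3 or MYC_Recur 1 or MYC_Recur 2 and 2 without MYC_Recur 3. Upward, 0 passed with the 6 libraries fitted alone. The sum was 57.6 to 77.8 in MYC_OFF and 56.2 to 119 in MYC_Recur, where Des alone was at 60.58, 0.14 and 22.33. Without Des and Thy1, whose means differed most, the sums were 39.8 to 63.7 in MYC_OFF and 42.1 to 56.6 in MYC_Recur, with overlap. Lrat, the retinol-storing enzyme of stellate cells, fell from 6.09, 17.8 and 1.47 to 0.17, 0.55 and 0.25 (-2.39, adjusted p = 0.000573), and Fbln1, at 2.65, 2.88 and 12.5 in MYC_OFF, is listed at 0 in all recurrent libraries. Tagln, a smooth muscle protein, rose by 0.63 (adjusted p = 0.0411). For the 7 tested erythroid markers, 4 calls were upward and 1 downward, around a median difference of 1.71. On rescaled values, there were 4 upward, 1 downward and a median of 1.10. Downward calls numbered 0 without MYC_OFF 1 or MYC_OFF 3 or MYC_Recur 1 or MYC_Recur 3. In the fit of the 6 libraries alone, 0 fell. They summed to 275 to 506 in MYC_OFF and 860.0 to 1055 in MYC_Recur. Without BETA-S and Hba-a1, whose means differed most, the sums were 123 to 377 in MYC_OFF and 204 to 261 in MYC_Recur, with overlap. BETA-S and Hba-a1, globin genes with near-identical copies, rose by 2.87 (adjusted p = 1.03e-05) and 1.46 (adjusted p = 7.78e-05), Klf1, the erythroid master factor, by 2.31 (adjusted p = 0.00165) and Tfrc, the transferrin receptor, by 1.90 (adjusted p = 1.6e-05); HBB-B2 fell by 0.99 (adjusted p = 0.0384). The Emcn call was lost without MYC_OFF 1, MYC_Recur 1 or MYC_Recur 3 (adjusted p = 0.056 to 0.205), and that of Tagln without MYC_OFF 3, MYC_Recur 1 or MYC_Recur 2 (adjusted p = 0.109 to 0.17). The HBB-B2 call was lost without MYC_OFF 1, MYC_OFF 3, MYC_Recur 1 or MYC_Recur 3 (adjusted p = 0.0845 to 0.225). Emcn, Tagln and HBB-B2 were not called in the fit of the 6 libraries alone (adjusted p = 0.0734 to 0.146). The Emcn difference was -0.71 without MYC_OFF 1. The HBB-B2 difference was -1.49 without MYC_OFF 2. The HBB-B2 difference was -0.58 without MYC_OFF 3. At least 1 of the other scalings ended the calls of Gpihbp1 and Tagln, and the Tagln difference turned to -0.02 under median of ratios.

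**Figure D5:**
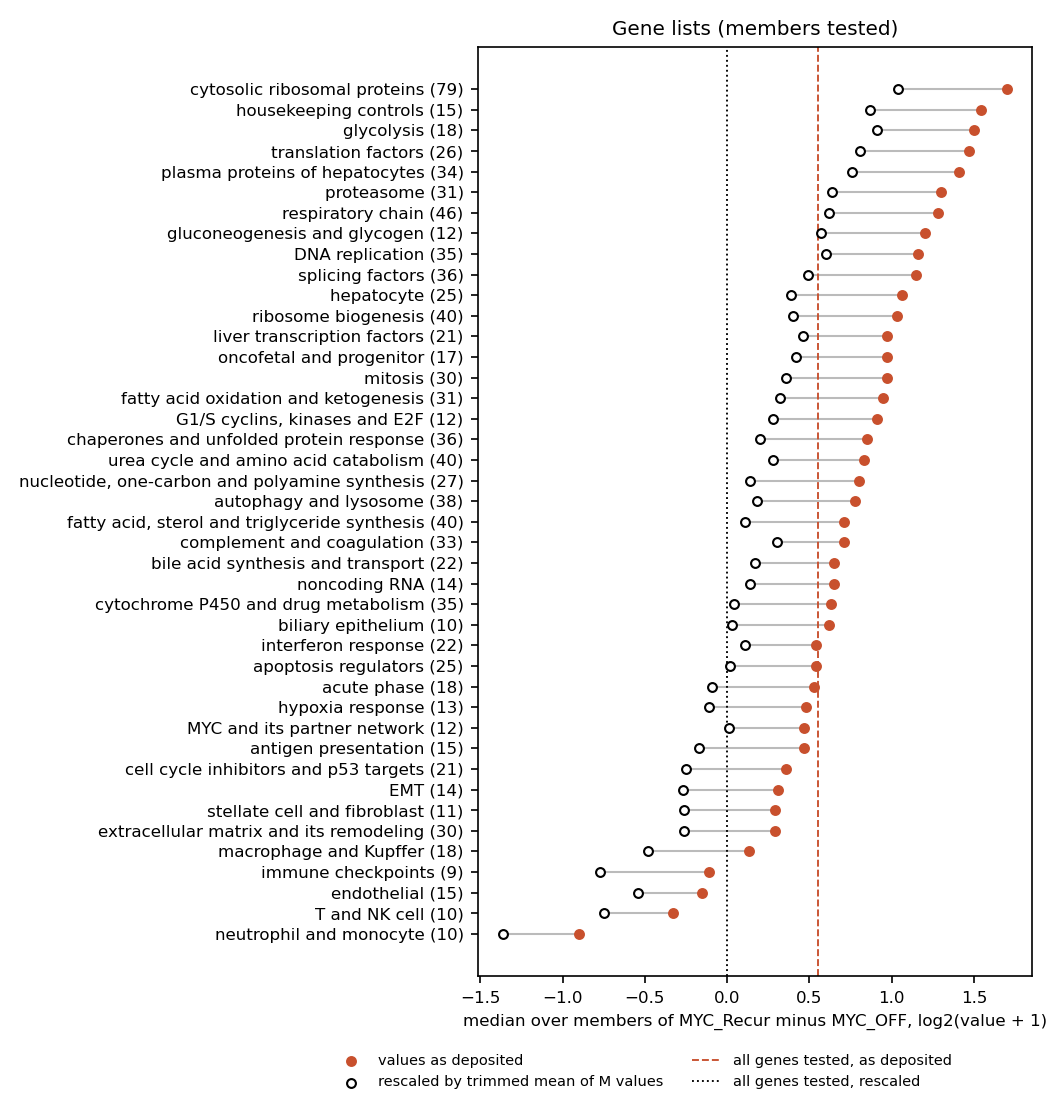
Median log2 difference of MYC_Recur minus MYC_OFF over the tested members of each list with at least 9 of them (number in brackets); red points use the deposited values, open points the values rescaled by the trimmed mean of M values, and the vertical lines mark the medians of all genes tested, 0.55 and 0.00. Ribosomal proteins, glycolysis and translation factors lie furthest right on both scales together with housekeeping genes, and neutrophil and monocyte markers furthest left.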

How the data were processed

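RNA of mouse liver tumors was sequenced, and 1 deposited table holds a normalized value per gene symbol and library. Per the submitters' processing notes, the tools used were Trimmomatic, STAR, Picard, featureCounts and DESeq2 with the mm10 build; no version, strand setting or normalization formula is given there. Deposited values are therefore treated as a signal on the authors' own scale, with unknown depth.

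Values were transformed to log2(value + 1) and tested with limma 3.58.1 (R 4.3.3, intensity trend) in 1 fit of the 5 group means over 19 libraries, with Benjamini-Hochberg adjustment over 11901 genes and calls at an adjusted p under 0.05. Of 19511 symbols, 25 bare numbers were left out and 7585 did not reach 1 in 3 of the 6 libraries. The fitting code was tested on simulated data. Libraries were rescaled by total, median of ratios, upper quartile and trimmed mean of M values as alternatives. Further alternatives were other pseudocounts, filters, sets of libraries and variance models, a replicate block and leaving out each library. Tables and figures used Python 3.11.15, pandas 2.3.3 and matplotlib 3.10.9. Promoter windows and gene positions came from RefSeq (GRCm38.p6) and GENCODE (GRCm38).

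Genes were named by a rule. It takes Myc and Twist1, then the 12 largest rises and the 12 largest falls among genes called in every leave-one-out fit and in the fit of the 6 libraries alone, without overlap, with a group mean of at least 5 and an established symbol. From each list it takes up to 4 members with the smallest p in the majority direction and up to 2 in the other, and it allows limiting enzymes, defining markers and partners of a named member. Rps19, Rps14, Rps25, Rpl27a, Rpl24, Rpl19, Ncl, Npm1, Cdk4, Ldha, Mki67, Incenp, Hk2, Lamp2, Gpc3, Me1, Mxd1, Mxd4 and Mxi1 were chosen after their values were seen. The same holds for C1qa, C1qc, S100a8, Cd79a, Mzb1, Foxp3 and Des. Marker sums without 2 members were added after seeing the data. Some genes that the rule takes are not reported here. The comparison and the gene lists were chosen with earlier results of these data known.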

Additional observations from a re-analysis of the deposited data

How the results depend on the processing

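The balance of rises and falls depended on the scaling of the libraries. Rises numbered 2541 with median of ratios, 2825 with the upper quartile and 2753 with the trimmed mean of M values, and falls numbered 2756, 2494 and 2540. The median difference over all genes was -0.06, 0.01 and 0.00 under these 3 scalings. It was 0.65 with a pseudocount of 0.1, 0.34 with a pseudocount of 5, 0.11 without a filter on low values and 0.74 with a filter at 5, and 0.51 to 0.67 on leaving out each library. Rises numbered 4282 to 5191 and falls 999 to 1332 on leaving out each library. Under median of ratios the differences of Sesn1 (-0.06), Col4a1 (-0.07) and Tagln (-0.02) changed sign. Cyp7a1 did so under median of ratios (-0.43), the upper quartile (-0.36), the trimmed mean of M values (-0.37) and without MYC_OFF 3 (-0.07). On leaving out each library, Cyp7a1 ranged from -0.07 to 0.26. The cause of these changes was not tested. Same-numbered libraries of the groups did not deviate together (correlations of -0.138, -0.102 and -0.097 across genes), and the numbers were not taken as pairs. With the replicate block on the 6 libraries, 3421 genes rose and 782 fell, against 4130 and 915 without it. Depth is unknown, so counting error could not be separated from the spread between libraries.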

Other observations

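Housekeeping genes are commonly used as constant references. Housekeeping genes were called higher in 8 and lower in 0 of 15 tested cases, at a median difference of 1.54. The rescaled list had 7 upward and 0 downward, with a median of 0.87. As deposited, 53.3% of the list rose, beside 41.4% of all genes tested. On rescaled values 46.7% rose, beside 23.1%. Actb, beta-actin, was at 313, 188 and 192 in MYC_OFF and 718, 869 and 1349 in MYC_Recur (2.07, SE 0.29, adjusted p = 1.84e-05), with no overlap. Calls among the 14 tested noncoding RNA genes numbered 4 upward and 1 downward, and the median member differed by 0.65. Once rescaled, the list had 2 upward, 1 downward and a median of 0.14. The count downward was 0 without MYC_OFF 2. Snhg3 and Snhg8, hosts of small nucleolar RNAs, rose by 2.09 (adjusted p = 0.00212) and 1.51 (adjusted p = 0.000507), the growth arrest transcript Gas5 by 1.34 (adjusted p = 0.00275) and Rn7sk, the 7SK RNA that holds the elongation factor P-TEFb, by 2.08 (adjusted p = 0.0186). Snhg1, another host gene, was at 169.9, 451 and 303 against 166, 92 and 105 (-1.28, adjusted p = 0.0118). The Rn7sk call was lost without MYC_OFF 2 or MYC_Recur 3 (adjusted p = 0.0505 to 0.0665), and that of Snhg1 without MYC_OFF 2 (adjusted p = 0.0728). With another scaling of the libraries, the calls of Gas5 and Rn7sk did not always hold.

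Of 15 tested antigen presentation genes, 4 rose and 2 fell, and the median difference was 0.47; after rescaling the counts were 2 and 4 and the median was -0.17. The direction of the median thus depended on the scaling. Upward calls numbered 2 without MYC_Recur 1; downward calls numbered 0 without MYC_OFF 3 and 1 without MYC_Recur 1 or MYC_Recur 3. In the fit of the 6 libraries alone, 1 fell. B2m, the light chain of class I molecules, was at 189, 97.97 and 77.5 against 412, 320.5 and 592 (1.91, SE 0.37, adjusted p = 0.000353), and Psmb10, an immunoproteasome subunit, was at 33.6, 15.7 and 13.03 against 94.1, 73.2 and 80.3 (2.05, adjusted p = 1.88e-05). Tapbp and Tap1, which load peptide, rose by 0.90 (adjusted p = 0.0133) and 0.91 (adjusted p = 0.0194). Psmb8, the partner of Psmb10 in the immunoproteasome, fell from 15.2, 7.35 and 16.3 to 4.39, 2.61 and 3.38 (-1.59, adjusted p = 0.0124), and H2-DMa, a class II chaperone, by 2.94 (adjusted p = 0.0236). The test called 1 of 9 checkpoint genes higher and 2 lower, with a median difference of -0.11. Rescaled values gave 1 higher, 3 lower and a median of -0.77. Higher calls came to 3 without MYC_Recur 3; lower calls came to 0 without MYC_Recur 1 or MYC_Recur 3 and 1 without MYC_OFF 1 or MYC_OFF 3. With these 6 libraries fitted alone, 0 fell. PVRL2 (nectin-2), a ligand of inhibitory receptors, rose by 1.75 (adjusted p = 9.08e-05), and 4632428N05RIK (VISTA) and Sirpa, 2 inhibitory receptors of myeloid cells, fell by 1.44 (adjusted p = 0.0253) and 0.84 (adjusted p = 0.0364). Among 6 chemokine genes, 3 passed the test upward and 1 downward (median difference 0.69). After rescaling, the list had 1 upward, 1 downward and a median of 0.21. The count downward was 0 without MYC_OFF 1 or MYC_OFF 2 or MYC_Recur 2 or MYC_Recur 3. Downward, 0 passed with the 6 libraries fitted alone. Cxcl12 and Ccl9, which attract lymphoid and myeloid cells, rose by 0.96 (adjusted p = 0.00351) and 0.90 (adjusted p = 0.00589), and Cx3cl1 is listed at 0 in all MYC_OFF libraries and was at 1.03, 5.04 and 4.6 in MYC_Recur. The Tapbp call was lost without MYC_Recur 1 (adjusted p = 0.0692), and that of Tap1 without MYC_OFF 3 or MYC_Recur 1 (adjusted p = 0.0542 to 0.072). The Psmb8 call was lost without MYC_OFF 3 (adjusted p = 0.0502), and that of H2-DMa without MYC_OFF 3, MYC_Recur 1 or MYC_Recur 3 (adjusted p = 0.0864 to 0.147). The 4632428N05RIK call was lost without MYC_OFF 1, MYC_Recur 1 or MYC_Recur 3 (adjusted p = 0.0562 to 0.189), and that of Sirpa without MYC_OFF 3, MYC_Recur 1 or MYC_Recur 3 (adjusted p = 0.0871 to 0.194). The 6 libraries alone gave no call of H2-DMa, 4632428N05RIK, Sirpa and Ccl9 (adjusted p = 0.0554 to 0.0934). The H2-DMa difference was -4.55 without MYC_Recur 2. The H2-DMa difference was -1.88 without MYC_Recur 3. The 4632428N05RIK difference was -0.68 without MYC_OFF 1. The Sirpa difference was -0.54 without MYC_OFF 3. Under some other scalings Tapbp, Tap1, Cxcl12 and Ccl9 did not pass the test.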
